A study of Mus musculus with 4 samples.

Results

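In the interfollicular epidermis, keratinocytes of the basal layer make keratins 5 and 14 and switch to keratins 1 and 10 when they leave that layer. The cells described here carried both pairs at once. They were chosen by keratin counts: a kept cell needed a Krt5+Krt14 count of at least 10 and a Krt1+Krt10 count between 20 and 200% of it. Cells with signs of other states were left out, namely a Krt79 count of 2 or more, a Cst6 count of 10 or more, any Lhx2, a summed Lce1 count of 20 or more, 5 or more counts over 5 early granular genes, or 4 or more over 6 cycling genes. Of 34150 kept cells, 2161 met the rule and are called members.

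The study compared whole-epidermis single-cell libraries of CerS4epi-/- mice with those of control mice, to learn what the ceramide synthase CerS4 does in the skin. Both groups were female C57BL/6N mice at postnatal day 19 and homozygous for the floxed CerS4 allele. The 2 CerS4epi-/- mice (CerS4fl/flK14Cre+) also carried Cre under the keratin-14 promoter, which deletes the gene in keratin-14 cells and their progeny, and the 2 control mice (CerS4fl/flK14Cre-) did not. Cells were labelled with sample tags before loading, and each mouse has 1 count table, called its library here. Total counts were 42619084 and 48497481 in the control mice and 53106317 and 39231945 in the CerS4epi-/- mice, and the members' summed counts were 1469568, 2050265, 2470355 and 1894949 when listed in that order (control 1, control 2, CerS4epi-/- 1, CerS4epi-/- 2), the order used for all sets of 4 values here.

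The libraries of 1 genotype shared no cell barcode with each other (0 among the control mice and 0 among the CerS4epi-/- mice), while pairs across genotypes shared 83, 79, 102 and 64. The product of the barcode numbers over all possible barcodes was 87.1 and 77.1 for the pairs within a genotype and 72.5 to 92.6 for those across. Which mice were loaded together is not given in the sources used here, so genotype and loading cannot be told apart. The CerS4epi-/- libraries also lost more barcodes to the mitochondrial limit, 363 and 316 against 68 and 91 in control mice. The members' median mitochondrial share was 9.68, 9.64, 10.6 and 10.9%.

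As background, a basal keratinocyte is held to the basement membrane by integrins, laminins and collagen XVII, and lets go of these as it moves up. Notch receptors are cleaved when a neighbouring cell presents a Jagged or Delta ligand, and the released fragment acts with RBPJ to turn on genes such as Hes1, a repressor that marks and sustains the spinous state. The spinous layer then builds desmosomes and keratin-1 and keratin-10 filaments, and later the ceramides of the barrier.

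Members were compared with the cells on either side of them, which passed the same exclusions. Basal neighbours (11057 cells) had a Krt1+Krt10 count under 20% of Krt5+Krt14, and spinous neighbours (8434 cells) had at least 10 counts of Krt1+Krt10 that came to over 200%. The keratin levels that follow describe the rule and support nothing. Krt5 in members was 8380, 7831, 9268 and 7918 CPM (counts per 1000000, after TMM scaling of each summed library), beside a mean of 9651 ± 716 (SD, n = 4) in basal and 956 ± 143 in spinous neighbours. Krt14 was 3868, 3452, 3921 and 2883 CPM in members, with means of 6584 ± 803 and 255 ± 44.2 in the neighbours. Krt10 was 7354, 6420, 6895 and 5410 CPM in members against 396 ± 61.7 and 27059 ± 2697, and Krt1 was 2411, 2429, 3086 and 2554 CPM against 154 ± 18.2 and 7621 ± 1580. At the lower edge of the gate, 394 cells between 15 and 20% had a median Krt1+Krt10 count of 6 and 247 cells between 20 and 25% had 7, and at the upper edge 239 cells between 160 and 200% had 57 and 239 between 200 and 250% had 65.

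Members made up 5.42, 6.85, 6.33 and 6.71% of the kept cells. The means were 6.14 ± 1.00% in control and 6.52 ± 0.269% in CerS4epi-/- mice (SD, n = 2), a difference of 0.388 percentage points with an exact permutation p of 1 (two-sided), where 0.333 is the smallest p that 2 against 2 mice allow. The control mice enclosed both CerS4epi-/- mice. Counted over the 3 classes together, members were 7.97 and 9.65% in control and 10.9 and 12.1% in CerS4epi-/- mice, where the groups did not overlap and p was 0.333. Spinous neighbours were fewer in the CerS4epi-/- libraries (1807 and 1327 cells against 2435 and 2865).

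Members had a median of 3200 counts per cell, against 2725 in basal and 4473 in spinous neighbours. Their median Scrublet doublet score was 0.0732, against 0.0439 and 0.0404, and 15% of them, against 2.52 and 3.96%, were among the 5% of cells with the highest score. By mouse, this share of members was 16.5, 17.8, 12.3 and 13.4%, and their median counts per cell were 2884, 2978, 3806 and 3363. The genotypes did not overlap in either measure. A pair of cells caught under 1 barcode can carry both keratin pairs, so counts are also given without the cells of highest score. Free RNA was estimated from near-empty barcodes, in which Krt1+Krt10 came to 231 and 257% of Krt5+Krt14 in control and 144 and 147% in CerS4epi-/- libraries. The 10 T cell markers summed to 17.2, 31.3, 42.7 and 16.8 CPM, with Thy1 the most abundant at a mean of 12.1 CPM, and the 10 Langerhans cell markers to 29.0, 43.7, 56.5 and 54.7 CPM, led by H2-Eb1. The 6 fibroblast markers stayed at 6.50 CPM or less, with Lum at 0, and of the 5 Merkel cell markers only Krt8 had a count. The 6 melanocyte markers summed to 7.89 CPM or less, with Tyrp1 at 0, and the 5 erythroid markers to 9.50 CPM or less, with Hbb-bt and Alas2 at 0. The 10 sebaceous gland markers summed to 144, 164, 144 and 171 CPM, led by Scd1 with Elovl3 at 0, and the 10 bulge markers to 234, 148, 243 and 234 CPM, led by Barx2. Markers of the upper hair follicle summed to 328, 291, 365 and 419 CPM in members, led by Krt17 with Tmem91 at 0, while in basal neighbours they summed to 427 and 344 CPM in control but 751 and 1159 CPM in CerS4epi-/- mice. The granular markers summed to 428, 422, 400 and 418 CPM in members, led by Lor, below the spinous sums of 1058 to 1093 CPM.

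The 4 genes proposed to mark these cells beside the keratins were chosen for being highest there, so their levels are a description with no test. Clca3a2, a member of the chloride channel accessory family whose reads can be shared with Clca3a1, was at 1909, 1411, 1753 and 1554 CPM in members. Its basal levels were 921, 674, 847 and 683 CPM and its spinous levels 1238, 1014, 1597 and 1313 CPM. In each mouse members stood above both neighbours, although the spinous level of CerS4epi-/- 1 overlapped the members of other mice. Hlf, a PAR bZIP transcription factor, was at 195, 235, 228 and 225 CPM in members, with basal means of 144 ± 23.5 and spinous means of 175 ± 30.2. Maf, a leucine zipper factor of keratinocyte differentiation, was at 366, 402, 287 and 236 CPM in members against 217 ± 56.5 and 214 ± 28.8. Id3, an inhibitor of bHLH factors that BMP signals induce, was at 139, 125, 161 and 217 CPM in members against 137 ± 28.2 and 93.0 ± 28.7. The Id3 values of members overlapped between mice with those of both neighbours. Maf in the basal neighbours of the control mice (247 and 282 CPM) exceeded the members of CerS4epi-/- 2. Hlf in the spinous neighbours of CerS4epi-/- 2 (207 CPM) exceeded the members of control 1.

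Cells were also ordered by their ratio of Krt1+Krt10 to Krt5+Krt14 into 8 bins, of which the middle 3 hold the members. Along these bins Clca3a2 went from 752 ± 133 CPM (SD, n = 4) under 2% to 1466 ± 172 between 20 and 50% and 1851 ± 349 between 100 and 200%, and came down to 1272 ± 262 over 500%. Hlf and Maf had their highest means between 50 and 100%, at 246 ± 6.26 and 344 ± 104 CPM. Id3 was nearly level up to the 200 to 500% bin (133 to 173 CPM) and was lowest over 500%, at 87.7 CPM.

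**Figure D1:**
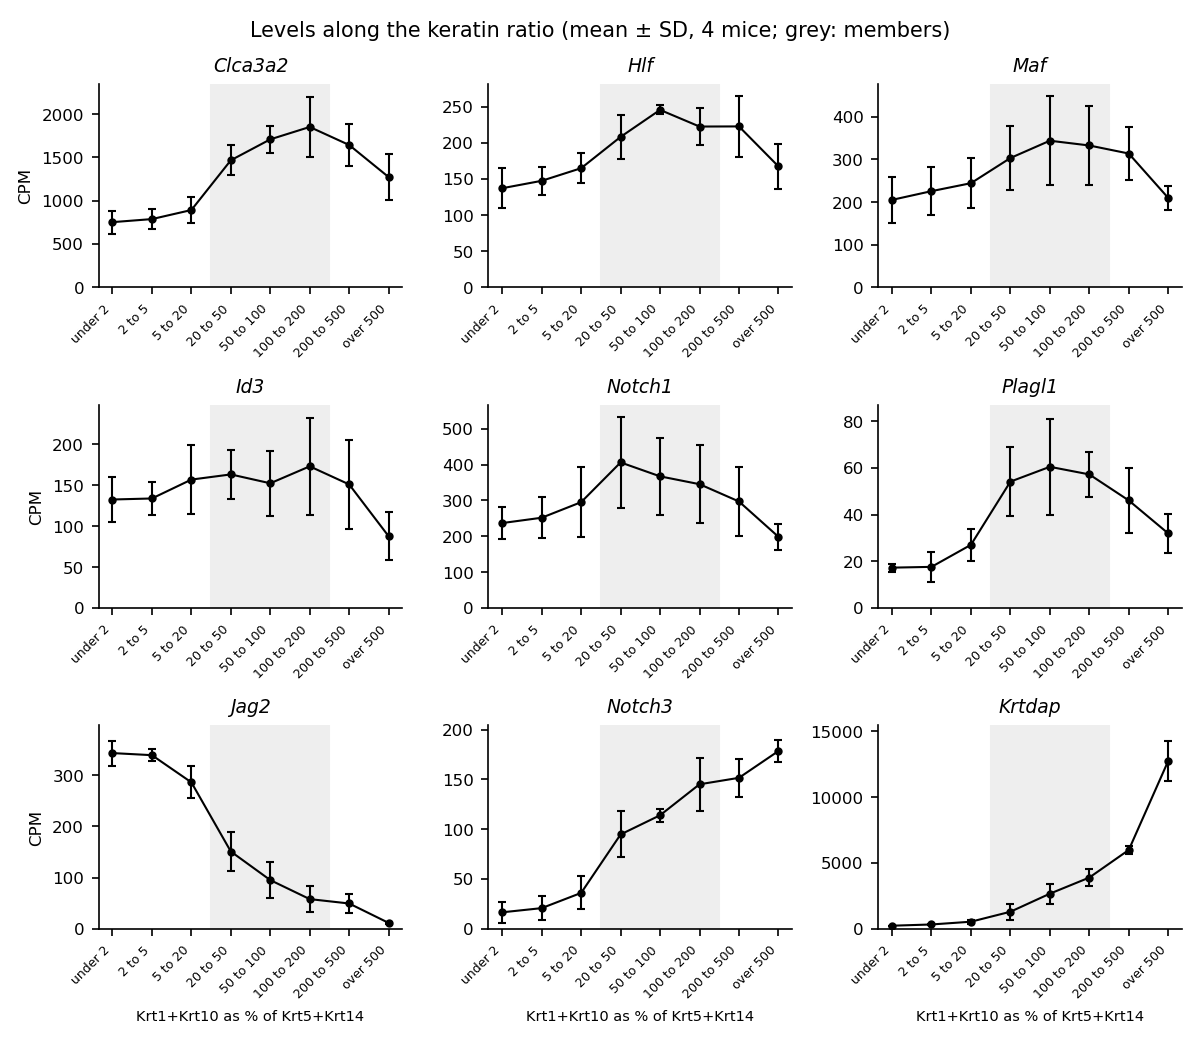
Mean CPM with SD over 4 mice (vertical axes, linear from 0) in 8 bins of the ratio of Krt1+Krt10 to Krt5+Krt14 (horizontal axes, in percent), with the bins of members in grey. Clca3a2, Hlf, Maf, Notch1 and Plagl1 have their highest means inside the grey bins. Jag2 falls from 343 to 11.3 CPM across the 8 bins, and Notch3 and Krtdap climb through the grey bins.

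Members were next compared with both sides at once. Only genes outside the rule were tested, in edgeR's quasi-likelihood test with the mouse as a block. The gate that draws the classes reads keratins, so genes that go with those keratins are still sorted in part by it. For such genes the calls against either neighbour describe the rule in part. Members exceeded both neighbours for 206 of 11487 genes (1.79%) and were below both for 97 (0.844%). The 206 include the 4 marker genes Clca3a2, Hlf, Maf and Id3, which were chosen for being highest in members, so their calls are no test. Without the 5% of cells with the highest doublet score the counts were 218 and 80, of which 182 and 69 were among the first lists. Among cells of 2000 to 6000 counts, which brings the depth of the classes closer, they were 110 and 35. DESeq2 gave 70 and 35, and leaving the mouse out of the model gave 25 and 29.

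Notch1, the receptor that drives basal cells into the spinous layer, was among the genes furthest above both sides. Its level in members was 258, 293, 436 and 486 CPM, in basal neighbours 198, 204, 298 and 301 CPM and in spinous neighbours 162, 175, 244 and 241 CPM. In every mouse the members had the highest of the 3 levels. The log2 differences were 0.56 ± 0.05 (SE) from basal and 0.81 ± 0.06 from spinous neighbours, with adjusted p of 3.7e-09 and 1.9e-12. Hes1, a direct Notch target, was at 432, 649, 791 and 1403 CPM in members, against 419, 632, 634 and 1180 in basal and 398, 428, 511 and 885 in spinous neighbours. The step from basal neighbours was small, at a log2 of 0.19 ± 0.04 (adjusted p 0.0018), and was within the spread between mice although members were higher in each mouse. Hes1 was not called against basal neighbours in 4 of 16 alternatives and against spinous neighbours in 2 of 16.

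The 250 bases before the start of the reference Hes1 transcript (GRCm39, read from the GENCODE vM39 annotation, plus strand) are printed because Hes1 was, with Notch1, the gene of the Notch list above both neighbours. Capitals mark TGGGAA, the letters at the core of RBPJ sites, searched on both strands (TTCCCA on the other).
Hes1 promoter, chr16:29883877-29884126: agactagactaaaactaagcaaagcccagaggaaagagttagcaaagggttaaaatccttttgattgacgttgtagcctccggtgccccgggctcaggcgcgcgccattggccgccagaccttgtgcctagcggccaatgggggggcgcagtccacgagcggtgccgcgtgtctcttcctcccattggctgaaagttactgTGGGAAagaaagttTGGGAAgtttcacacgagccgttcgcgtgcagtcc
The letters stand 49 and 35 bases before the start. Windows of the same length held them in 22.7% of all 21745 genes and in 9 of 22 genes of the Notch list (40.9%), Hes1 included and Notch1 and Nrarp not. A match is a description and not a proof of binding.

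Other genes of the Notch list differed in either direction. The ligand Jag2 was at 112, 133, 81.3 and 69.4 CPM in members, between basal levels of 305 to 349 CPM and spinous levels of 10.7 to 16.2 CPM, with a log2 difference of -1.71 ± 0.08 from basal neighbours (adjusted p 1.1e-13). The ligand Dll1 ran the same way, at 35.0, 37.5, 25.2 and 28.9 CPM in members and a log2 of -1.23 ± 0.09 from basal neighbours (adjusted p 1.9e-10). The receptor Notch3 ran the other way, at 103, 109, 126 and 131 CPM in members against 14.0 to 33.6 CPM in basal and 171 to 190 CPM in spinous neighbours, a log2 of 2.44 ± 0.11 from basal (adjusted p 6.1e-14). None of these ranges overlapped between classes. The feedback regulator Nrarp (log2 1.51 ± 0.08) and the receptor Notch2 (0.61 ± 0.10) were also higher in members than in basal neighbours, and Lfng, which modifies the receptors, was lower (-2.41 ± 0.14). Of 14 tested genes of the Notch list, 5 were higher and 4 lower than in basal neighbours, where 12.1 and 13.4% of all 11929 genes were. Against spinous neighbours 9 were higher and 3 lower, where 24.4 and 24.8% of 11705 genes were. The list's medians were -0.01 and 0.43 on the log2 scale, beside 0.00 and 0.01 over all genes tested.

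Other genes above both sides had different roles. Plagl1, a zinc finger factor that restrains growth, was at 50.2, 43.7, 66.2 and 67.3 CPM in members, against 16.2 to 22.0 CPM in basal and 23.7 to 40.4 CPM in spinous neighbours, and no range overlapped. Its log2 differences were 1.57 ± 0.09 and 0.85 ± 0.09 (adjusted p 5.2e-12 and 1.5e-08). Krt16, a keratin of stressed and wounded epidermis, was at 77.2, 32.3, 180 and 157 CPM in members, against 33.5, 23, 85.4 and 87.9 in basal and 29.0, 22.6, 74.9 and 40.8 in spinous neighbours. Mcam, an adhesion molecule, was nearly absent from control mice (3.3 and 5.7 CPM in members) and reached 46.3 and 65.7 CPM in CerS4epi-/- members. Pyy, a peptide hormone, was at 142, 32.3, 118 and 117 CPM in members, and the control mice lay far apart.

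Klf5, a factor of basal proliferation, and Krt15, a basal keratin, did not follow the other basal genes. Klf5 was at 816, 793, 811 and 793 CPM in members, above all 8 neighbour values, which ran from 571 to 700 CPM. Krt15 was at 9914, 10444, 9459 and 10581 CPM in members, against 8065 to 9763 CPM in basal and 4574 to 5645 CPM in spinous neighbours, a log2 of 0.20 ± 0.03 and 0.99 ± 0.04 (adjusted p 2.7e-05 and 3.4e-17). It was the 1 gene of 20 tested on the basal list that was higher in members than in basal neighbours. Dok4, Snhg15, Rnf169, Smim8, Marveld3 and Pmaip1 completed, with Maf, the 12 genes that were furthest above both sides by the smaller of their 2 differences and were higher in each of the 4 mice, with log2 differences from basal neighbours of 0.58, 0.55, 0.51, 0.68, 0.43 and 0.68. Maf is a marker gene that was chosen for being highest in members, so its rank is no test. Rnf169 and Marveld3 were not called against basal neighbours in 7 and 6 of 16 alternatives. Hbegf passed on both sides as well, by a log2 of 0.23 and 0.19, and was not called in 9 and 8 of 16 alternatives.

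**Figure D2:**
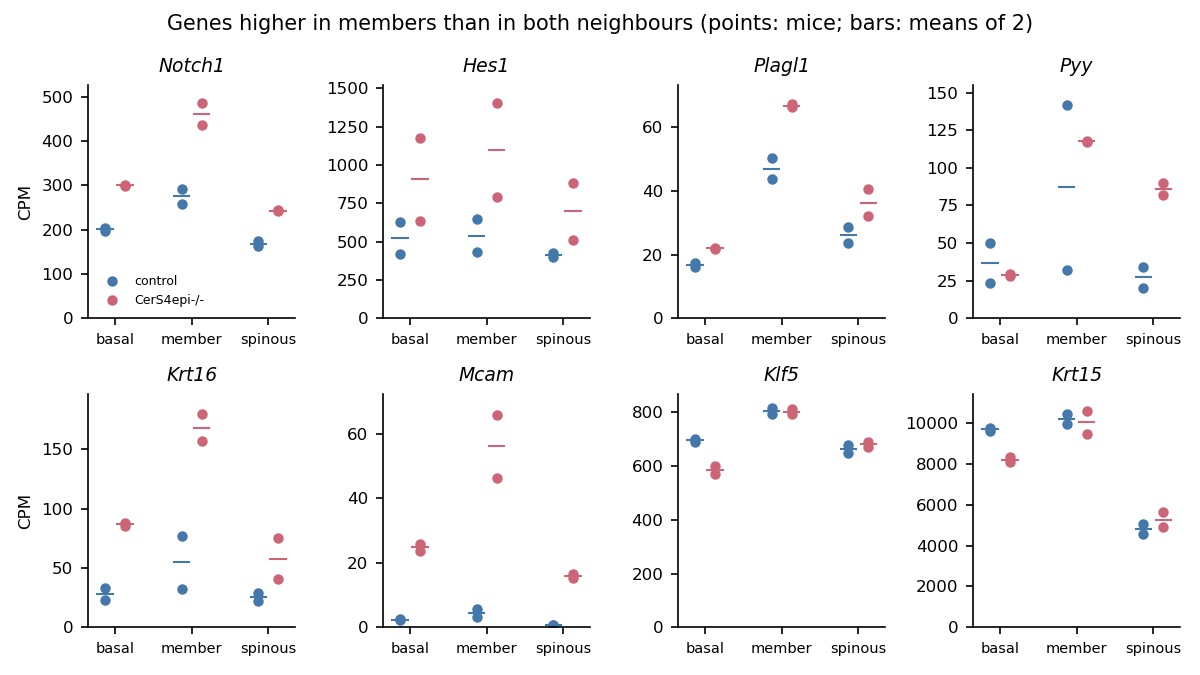
CPM per mouse (points, blue control and red CerS4epi-/-, vertical axes linear from 0) and the mean of 2 mice (bars) in basal neighbours, members and spinous neighbours for 8 genes called higher in members than in both. Members hold the highest level in each mouse for Notch1, Plagl1, Krt16, Mcam, Klf5 and Krt15, whereas the control mice lie apart for Pyy and the steps of Hes1 are smaller than the spread between mice.

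Genes of protein synthesis and folding were described from lists chosen after values were seen, beside 12.1% higher and 13.4% lower of all genes against basal neighbours and 24.4 and 24.8% against spinous neighbours. Of 77 cytosolic ribosomal protein genes, 66 were higher in members than in basal neighbours and 70 were higher than in spinous neighbours, with 0 and 1 lower and small medians of 0.13 and 0.21 on the log2 scale. In all, 59 were above both sides. Without the mouse in the model 5 and 50 were called higher, at medians of 0.14 and 0.22. Of 20 folding genes of the endoplasmic reticulum, 8 were lower than in basal and 17 lower than in spinous neighbours (medians -0.17 and -0.46), and 1 was higher than in basal neighbours. Hspa5, the main chaperone of that compartment, was at 468, 415, 485 and 364 CPM in members, against 632, 522, 542 and 461 in basal and 722, 482, 655 and 536 in spinous neighbours. It was among 7 that were below both sides, with Hsp90b1, Calr, Pdia3, Pdia4, Dnajc3 and Xbp1. Without the mouse in the model 1 of the 20 was lower than in basal neighbours, and Xbp1 was not called there in 10 of 16 alternatives.

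Calm2, a calmodulin, was the most abundant of the genes furthest below both sides. It was at 236, 215, 226 and 228 CPM in members, against 297 to 388 CPM in basal and 339 to 501 CPM in spinous neighbours. The log2 differences were -0.60 ± 0.05 and -0.89 ± 0.07 (adjusted p 3.6e-09 and 2.5e-11). Prim1, a DNA primase subunit, was at 25.7, 24.7, 23.6 and 25.8 CPM against 34.6 to 42.3 and 32.9 to 48.3 CPM. The G protein regulator Rgs2 was at 39.6, 39.9, 46.7 and 30.0 CPM against 71.6 to 102 and 69.3 to 140 CPM, and the Hippo pathway factor Tead1 was at 12.6 to 29.7 CPM against 34.1 to 41.1 and 29.1 to 42.6 CPM. Among cells of 2000 to 6000 counts, the log2 differences of Rgs2 and Tead1 from spinous neighbours were 0.029 and 0.018. Hmgn3 and 2310046K23Rik were also below both, the latter above its basal neighbours when the rule was applied to cells thinned to equal counts.

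RNA of genes that serve attachment to the basement membrane was lower in members than in basal neighbours. Sorting by the keratin ratio sets this direction in part. All 19 tested genes of hemidesmosomes and basement membrane were lower than in basal neighbours (median log2 -0.97), and all 17 tested were higher than in spinous neighbours (1.89), where 13.4 and 24.4% of all genes were. Itga3, an integrin chain for laminin, was at 81.2, 98.8, 62.6 and 67.3 CPM in members, against 263 to 287 CPM in basal and 7.95 to 11.0 CPM in spinous neighbours. Its log2 difference from basal neighbours was -1.81 ± 0.07 (adjusted p 4.8e-15). Lamb3, a chain of laminin-332, was at 166, 205, 176 and 153 CPM, with a log2 of -1.06 ± 0.06. Of 3 hemidesmosome genes, the integrin chains Itgb4 and Itga6 were at 185, 245, 274 and 290 CPM (log2 -0.79 ± 0.05) and at 558, 574, 464 and 423 CPM (-0.42 ± 0.04), and Col17a1 at 964, 1135, 1123 and 1107 CPM (-0.39 ± 0.03). Col17a1 was at 1349 to 1469 CPM in basal and 257 to 305 CPM in spinous neighbours.

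Of 20 tested basal genes, 18 were lower in members than in basal neighbours and 20 higher than in spinous neighbours, beside the same 13.4 and 24.4% of all genes. Smoc2, a matrix protein, was at 87.1, 99.7, 75.6 and 72.1 CPM against 227 to 297 and 9.39 to 10.5 CPM. Among the 10 largest falls from basal neighbours were Sparc (log2 -2.25 ± 0.10), Ctnnal1 (-2.17 ± 0.10), Krt6a (-2.14 ± 0.22), Agrn (-1.93 ± 0.09), Fcgbp (-1.83 ± 0.10), Fst (-1.77 ± 0.14), Slco2a1 and Cbr2. Krt6a and Fst are also made in follicle cells, which the basal neighbours can hold. Bulge markers were lower in members than in basal neighbours for 4 of 7 tested and upper hair follicle markers for 4 of 9, with 0 higher in both. The part of follicle cells in these falls was not tested.

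Genes of the early spinous programme were higher in members than in basal neighbours, a direction that sorting by the keratin ratio sets in part. Of 21 tested, 20 were higher than in basal neighbours (median log2 1.36) and 21 of 22 were lower than in spinous neighbours (-2.13), beside 12.1 and 24.8% of all genes. Krtdap, a secreted protein of differentiating keratinocytes, was at 2180, 2154, 2830 and 3253 CPM in members, against 290 to 366 CPM and 11036 to 13800 CPM. Its log2 difference from basal neighbours was 3.01 ± 0.05 (adjusted p 1.3e-22). Mt4, the metallothionein of stratified epithelia, went from 3.22 to 5.99 CPM in basal neighbours to 46.5 to 54.8 CPM in members (log2 3.47 ± 0.14), and Calm4 from 268 to 400 CPM to 960, 1005, 1501 and 1464 CPM (1.89 ± 0.04). Sbsn was at 165, 132, 125 and 96.2 CPM in members, against 52.2 to 72.0 CPM in basal and 1362 to 1833 CPM in spinous neighbours. Ly6g6e, Acer1, Hpgds, Ddr2, Fads2b, Serpinb3b, Serpina3j and Krt77 were the other largest rises, with log2 differences of 2.62 to 3.38 from basal neighbours. The genes furthest below their spinous level were Gm94 (-3.99), Hal (-3.67), Skint3 (-3.66), Sbsn (-3.65), Skint5, Dgat2, Skint9, Spink5, Ly6g6c and Ptpn21, and those furthest above it were Ptn (3.78), Lamb3 (3.32), Ccdc3 (3.17), Serpinh1, Smoc2, Itga3, Antxr1, Igfbp7, Fcgbp and Ackr3.

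Transcription factors of differentiation were higher in members than in basal neighbours for 13 of 25 tested genes and lower for 3, beside 12.1% higher and 13.4% lower of all genes. The 13 include Hlf and Maf, which were chosen for being highest in members and so are no test. Zfp750, an activator of terminal differentiation, was at 233, 223, 337 and 320 CPM in members against 36.1 to 76.3 CPM in basal neighbours (log2 2.37 ± 0.08) and 296 to 360 CPM in spinous neighbours (-0.28 ± 0.06). Grhl3, a barrier factor, was at 76.6, 71.2, 73.1 and 55.2 CPM (2.34 ± 0.10), and Ovol1, which represses proliferation, at 149, 115, 315 and 289 CPM (1.73 ± 0.08). Of the desmosome and adherens junction list, 8 of 15 were higher against the same shares of all genes, among them Dsc3 (log2 0.65 ± 0.03), Jup and Pkp1, and Dsg2, Cdh3 and Dsg3, of the lower layers, were lower.

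Cell cycle genes were lower in members than in basal neighbours for 16 of 27 tested and higher for 3, beside 13.4 and 12.1% of all genes, but the rule had removed cycling cells by other genes from all classes. Ccnd2, a G1 cyclin, was at 379, 298, 299 and 245 CPM in members against 828 to 1006 and 43.9 to 63.0 CPM (log2 -1.59 ± 0.06 from basal). Ccnd1 was at 126, 111, 120 and 94.7 CPM (-0.92 ± 0.06). The 3 that were higher were the inhibitors Cdkn2b and Cdkn1a and the retinoblastoma gene Rb1. Genes of sphingolipid and barrier ceramide metabolism were higher in members than in basal neighbours for 16 of 31 and lower than in spinous neighbours for 25, beside 12.1 and 24.8% of all genes. Elovl4, which makes the very long acyl chains of barrier ceramides, was at 136, 158, 177 and 145 CPM in members against 21.9 to 33.8 and 918 to 1064 CPM. Acer1, an alkaline ceramidase, was at 63.4, 65.1, 60.1 and 52.1 CPM (log2 3.27 ± 0.13), and Cers3, the ceramide synthase of the barrier, at 36.3, 46.5, 33.7 and 34.7 CPM (0.69 ± 0.11).

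For the lists that follow, 12.1% of all genes tested were higher and 13.4% lower in members than in basal neighbours. The BMP and Id list gave 3 higher and 9 lower of 20 against basal neighbours, with Id1 higher (log2 0.70 ± 0.10), and the clock list 3 and 5 of 16. Id3 in the first list and Hlf in the second are among those higher, but were chosen for being highest in members. Of the other 4 tested genes of the Clca family, which Clca3a2 belongs to, Clca1 and Clca2 were higher and 0 were lower. Interferon and antigen presentation genes were lower for 11 of 21, B2m among them, and 6 of 8 tested T cell and 5 of 9 Langerhans cell markers were lower too. The summed T cell markers of basal neighbours were 87.8, 96.1, 142 and 108 CPM, and the part of those cells in the result was not tested. Stress and wound genes gave 4 higher and 4 lower of 13, and immediate early genes 2 and 7 of 22. The 13 mitochondrially encoded genes gave 0 and 0, and 11 of them were higher than in spinous neighbours, where 24.4% of all genes were.

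**Figure D3:**
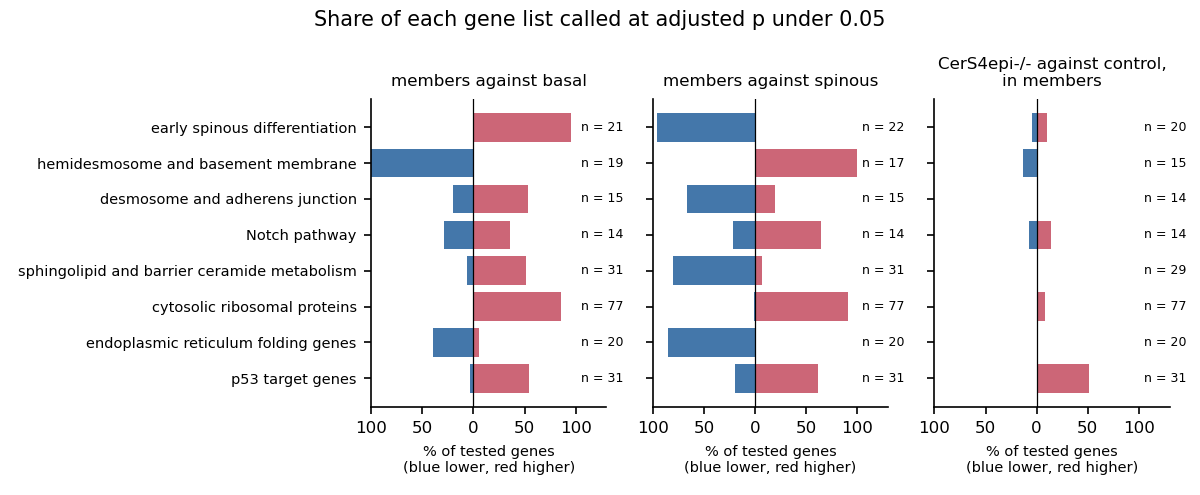
Share of the tested genes of 8 lists (n beside each bar) called higher (red, right) or lower (blue, left) at an adjusted p under 0.05, in percent, for members against basal neighbours, members against spinous neighbours, and CerS4epi-/- against control mice within members. The spinous, basement membrane and sphingolipid lists change sides between the first and second panels, the ribosomal list is mostly higher in both, and of the 8 lists shown the p53 list has the largest share called in the third. The immediate early list, not shown, had 12 of 22 genes higher there. The last 3 lists were chosen after values were seen.

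Members were also split by the ratio that the rule reads. Genes that go with its keratins are therefore sorted in part by this split. Members with a ratio of 100 to 200% were compared with those from 20 to under 50%, in each mouse. They made up 35.9, 35.7, 33.1 and 29.1% of members for the higher part and 42.0, 35.5, 39.2 and 42.3% for the lower. Of 8002 genes, 209 (2.61%) were higher and 232 (2.9%) lower at the higher ratio. The largest rises were Fads2b, Ddr2, Ly6g6c, Krtdap, Hpgds and Gm94, at log2 differences of 1.58 to 1.68. The largest falls were Fst (-2.48 ± 0.26), Ptn (-2.32 ± 0.30), Sema5a (-1.88 ± 0.25), Agrn, Ccdc3 and Igfbp4. Early spinous genes were higher for 16 of 18 and lower for 0, and basement membrane genes lower for 11 of 15. Jag2 fell by 1.39 on the log2 scale (SE 0.13, adjusted p 1e-10) while Nrarp rose by 0.77 ± 0.12 and Notch3 by 0.65 ± 0.13. Notch1 differed by -0.21 ± 0.08, with an adjusted p of 0.11. DESeq2 called 117 genes across the gate, and without the mouse in the model edgeR called 141.

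The deleted gene could not check the genotype labels in these cells. Cers4 had 1, 0, 2 and 1 counts in the members of the 4 mice, too few to test, and 10, 9, 9 and 11 counts in basal neighbours. Between genotypes, 148 of 9927 genes (1.49%) were higher and 79 (0.796%) lower in CerS4epi-/- members. The count was 94 without control 1, 88 without control 2, 394 without CerS4epi-/- 1 and 121 without CerS4epi-/- 2, and 203 without the cells of highest doublet score. At an unadjusted p under 0.05, 721 were higher and 634 lower. The same test within basal neighbours called 3.84% of 12478 genes higher and 2.64% lower, and within spinous neighbours 3.73 and 3.35% of 12601. Of the 148 higher genes, 97 were also called in basal and 106 in spinous neighbours, and 19 in members alone. Of the 79 lower genes, 54 and 46 were also called there, and 14 in members alone. A call in 1 class and not in another does not show a difference between classes.

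Targets of p53 were among the genes that rose. p53 is a transcription factor that is held low mainly by breakdown of its protein and is released by DNA damage and other stress, after which it induces genes of cell cycle arrest, repair and cell death. The list of 32 of its known targets was chosen after values were seen. Of 31 tested, 16 were higher in CerS4epi-/- members and 0 lower, beside 1.49 and 0.796% of all genes, with a median log2 difference of 0.80 beside 0.00 over all genes. Over all alternatives run, 7 to 21 were higher, 0 lower, and the median was 0.72 to 0.93, with 7 called by DESeq2 and 7 without control 2. Trp53 itself was at 77.9, 90.2, 93.1 and 87.3 CPM (log2 0.10 ± 0.13, adjusted p 0.81).

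Cdkn1a, the p21 inhibitor of cyclin-dependent kinases, was at 432, 442, 712 and 870 CPM in members. The genotypes did not overlap, and the log2 difference was 0.86 ± 0.10 (adjusted p 0.00013). Ccng1, cyclin G1, was at 52.1, 46.5, 114 and 122 CPM, a log2 of 1.27 ± 0.14 (adjusted p 0.00012). Ptp4a3, a phosphatase, was at 7.92, 14.7, 87.4 and 69.4 CPM, a log2 of 2.74 ± 0.24 (adjusted p 1.5e-05). The largest difference on the list was that of Ddit4l, an inhibitor of mTORC1, with 1.32 and 1.90 CPM in control and 15.8 and 15.8 CPM in CerS4epi-/- members, from 6 and 69 counts (log2 3.21 ± 0.42). Among inhibitors of p53 itself, the ubiquitin ligase Mdm2 was at 42.9, 44.2, 65.0 and 92.0 CPM (log2 0.84 ± 0.18) and the phosphatase Ppm1d at 13.9, 17.1, 35.8 and 34.7 CPM (1.17 ± 0.22). Of the cell death genes, Pmaip1 was at 25.1, 20.9, 46.3 and 50.5 CPM (1.09 ± 0.19) and Bax at 50.2, 38.0, 69.9 and 72.6 CPM (0.72 ± 0.17), with Bax not called in 8 of 16 alternatives. The remaining genes called were Psrc1 (2.54), Gtse1 (2.27), Polk (1.48), Zmat3 (1.13), Dcxr (1.12), Plk2 (1.11), Trp53inp1 (0.65) and Ephx1 (0.61). Mdm2, Dcxr and Ephx1 were each not called in 5 of 16 alternatives. Ppm1d was not called in 4 of 16, Gtse1 in 4 of 15, and Pmaip1 and Trp53inp1 in 3 of 16. Cdkn1a, Ccng1, Ptp4a3, Ddit4l, Psrc1 and Plk2 were called in all 16.

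Sequences that match the p53 response element (a pair of 10-base half-sites up to 13 bases apart, searched by its named consensus on both strands with at most 1 mismatch in each half-site outside its core) are printed for 3 genes that rose, with the half-sites in capitals, from GRCm39 and the plus strand.
Cdkn1a, chr17:29309892-29309931: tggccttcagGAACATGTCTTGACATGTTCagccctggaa
Trp53inp1, chr4:11155102-11155142: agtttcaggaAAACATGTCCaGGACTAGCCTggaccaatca
Plk2, chr13:110530918-110530957: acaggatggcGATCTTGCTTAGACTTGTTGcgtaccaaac
They begin 2836, 1300 and 87 bases before the reference transcript start. Windows of 3000 bases held such a match for 12 of the 32 genes (37.5%) and for 19% of all 21745 genes. No binding was measured.

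The rise was compared with that of the neighbours in the same mice. In basal neighbours Cdkn1a was at 247, 246, 308 and 395 CPM and in spinous neighbours at 937, 975, 1018 and 1221 CPM, and the genotype difference was larger in members than in either, by 0.35 ± 0.06 and 0.64 ± 0.07 on the log2 scale (adjusted p 0.0065 and 2.5e-05). Ccng1 was at 53.3, 47.7, 69.4 and 68.6 CPM in basal neighbours, and its genotype difference was larger in members by 0.80 ± 0.14 (adjusted p 0.0055). For Ptp4a3 the basal levels were 10.9, 13.6, 33.7 and 32.1 CPM and the excess in members 1.35 ± 0.25 (adjusted p 0.0065). Of the 31 tested genes, 6 had a larger and 0 a smaller genotype difference in members than in basal neighbours, where 0.327 and 0.302% of all genes had one, and against spinous neighbours 2 and 0, where 0.179 and 0.111% had. Over the alternatives the first count ran from 1 (DESeq2, and cells of 2000 to 6000 counts) to 7, and was 4 without control 2. Against spinous neighbours 1 to 4 were larger and up to 1 smaller. Within the neighbours themselves, 13 of the list were higher in basal and 17 in spinous CerS4epi-/- cells, with 0 lower in both, where 3.84 and 3.73% of all genes were higher. As measured facts beside these differences, the CerS4epi-/- basal neighbours held more upper hair follicle marker RNA (given above). Their 10 bulge markers, led by Sox9, summed to 381 and 428 CPM, against 256 and 209 CPM in control basal neighbours. Also, 9 of 22 immediate early genes had a larger genotype difference in members than in basal neighbours. Btg2 is counted both among these 9 and among the 6 of the p53 list. The count of 9 was 5 without control 2, 5 to 12 with any 1 mouse left out and 0 among cells of 2000 to 6000 counts. The part of these measures in the p53 result was not tested.

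**Figure D4:**
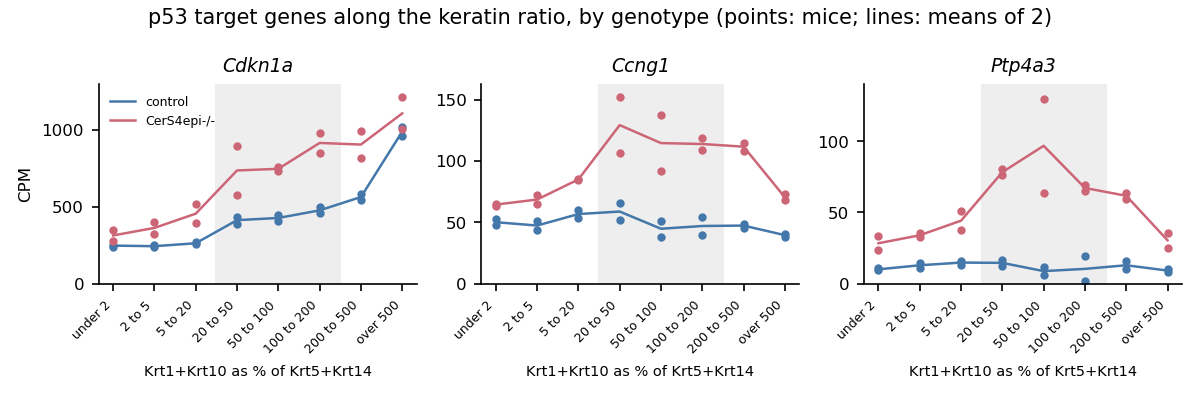
CPM of 3 p53 target genes per mouse (points, blue control and red CerS4epi-/-) and the mean of 2 mice (lines) in 8 bins of the ratio of Krt1+Krt10 to Krt5+Krt14 in percent, vertical axes linear from 0, bins of members in grey. In control mice Ccng1 and Ptp4a3 stay near one level, and in CerS4epi-/- mice their means are highest inside the grey bins, while Cdkn1a climbs in both genotypes and the lines draw closer over 500%.

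The largest rise in CerS4epi-/- members was Cstdc5, a stefin-type inhibitor of cysteine proteases, at 9.90, 1.90, 230 and 154 CPM (log2 5.19 ± 0.33, adjusted p 5.7e-07). Stfa1 had a mean of 3.40 ± 0.785 CPM (SD, n = 2) in control and 45.2 ± 6.71 CPM in CerS4epi-/- members (log2 3.76 ± 0.30) and Stfa3 at 7.26, 3.80, 77.6 and 39.4 CPM (3.50 ± 0.39). These stefin genes have near-identical copies, so the split of reads among them is uncertain. Mcam (3.55 ± 0.31), Serpina3j (2.84 ± 0.60), the chemokine Cxcl1 (2.81 ± 0.27), Igfbp4 (2.51 ± 0.27), Fbxw9 (1.82 ± 0.24) and the tight junction protein Cldn4 (1.81 ± 0.19) followed. Of 10 tested stress and wound genes, Stfa1, Krt16, Defb6 and Sprr1a were higher and Il33 was lower, beside 1.49 and 0.796% of all genes, with Krt16 at a log2 of 1.70 ± 0.23 (adjusted p 0.00072). Serpina3j and Sprr1a were each not called in 5 of 16 alternatives, and Defb6 in 3. Within basal neighbours 6 of 11 tested stress and wound genes were higher and 1 lower, beside 3.84 and 2.64% of all genes. Within spinous neighbours 5 of 14 were higher and 1 lower, beside 3.73 and 3.35%.

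The largest fall was Igfbp3, a binding protein of insulin-like growth factors, at 403, 292, 46.3 and 24.7 CPM (log2 -3.23 ± 0.20, adjusted p 5.7e-07). It was lower in CerS4epi-/- basal neighbours too, at 123 and 78.4 CPM against 504 and 445, and the fall was larger in members by 1.02 ± 0.14 in size on the log2 scale (adjusted p 0.00031). Fcgbp was at 267, 178, 102 and 58.4 CPM (-1.42 ± 0.21), the alarmin Il33 at 65.3, 87.4, 33.3 and 31.0 CPM (-1.25 ± 0.18) and Timp3, an inhibitor of matrix proteases, at 38.3, 32.8, 15.4 and 15.8 CPM (-1.17 ± 0.21). Cdh4 (-2.06 ± 0.27), Gabrp (-1.40 ± 0.27), Aldh1a7 (-1.35 ± 0.31), Gm20400 (-1.22 ± 0.23), Cdsn (-1.16 ± 0.18) and Foxq1 (-1.10 ± 0.22) made up the 10 largest. Gabrp, Aldh1a7 and Timp3 were each not called in 5 of 16 alternatives, Cdsn and Gm20400 in 4 and Foxq1 in 3. Igfbp3, Cdh4 and Il33 were called in all 16. Of the basement membrane list, Itga2 and Itga6 were the 2 of 15 that fell (0.796% of all genes did), by 1.23 and 0.34 on the log2 scale, and they were not called in 9 and 8 of 16 alternatives.

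Of the 14 tested Notch pathway genes, 2 were higher (Notch1 and Hes1) and 1 was lower (Jag2) in CerS4epi-/- members, with a median log2 of -0.09, where 1.49 and 0.796% of all genes were. Hes1 and Jag2 were not called in 3 and 4 of 16 alternatives. Notch1 was higher in both CerS4epi-/- mice, by a log2 of 0.74 ± 0.10 (adjusted p 0.0005), and was higher in their basal and spinous neighbours as well (0.58 ± 0.07 and 0.53 ± 0.07). Hes1 was higher by 1.01 ± 0.20 (adjusted p 0.013), although CerS4epi-/- 1 at 791 CPM stood much nearer to control 2 at 649 CPM than to CerS4epi-/- 2 at 1403 CPM. Jag2 was lower by a log2 of -0.70 ± 0.14 (adjusted p 0.012), while its basal neighbours differed by -0.10 ± 0.08, and the difference between classes was -0.59 ± 0.11 (adjusted p 0.0068). The other 11 tested genes of the list were not called, Notch3 among them (0.28 ± 0.12, adjusted p 0.29).

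Of 20 tested early spinous genes, Krtdap (log2 0.49 ± 0.07, adjusted p 0.0013) and Calm4 (0.60 ± 0.07) were higher and Krt77 (-0.72 ± 0.10) was lower, beside 1.49% higher and 0.796% lower of all genes. Krtdap was lower in CerS4epi-/- spinous neighbours, at 11036 and 11303 CPM against 12907 and 13800, a log2 of -0.25 ± 0.08 that was not called (adjusted p 0.11), and the genotype difference was larger in members by 0.75 ± 0.07 (adjusted p 8.1e-07). Among the differentiation factors reported here, Elf3 (2.06 ± 0.35), Ehf (1.52 ± 0.29), Ovol1 (1.21 ± 0.12), Zfp750 (0.54 ± 0.09) and Cebpb (0.47 ± 0.10) were higher, and Maf (-0.54 ± 0.11, adjusted p 0.012) and Gata3 (-0.34 ± 0.08) were lower. Elf3, Ehf and Ovol1 were also called higher, and Gata3 lower, in both neighbours. Zfp750, Cebpb and Maf were called the same way in basal neighbours only. In members, Cebpb and Gata3 were not called in 9 and 7 of 16 alternatives. Clca3a2, Hlf and Id3 were not called, at log2 differences of 0.00 ± 0.11, 0.08 ± 0.11 and 0.52 ± 0.14. None of the 29 tested sphingolipid genes, 14 junction genes and 15 interferon genes was called, and Id1 was the 1 of 17 in the BMP list (0.76 ± 0.17). Id1 was not called in 6 of 16 alternatives.

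**Figure D5:**
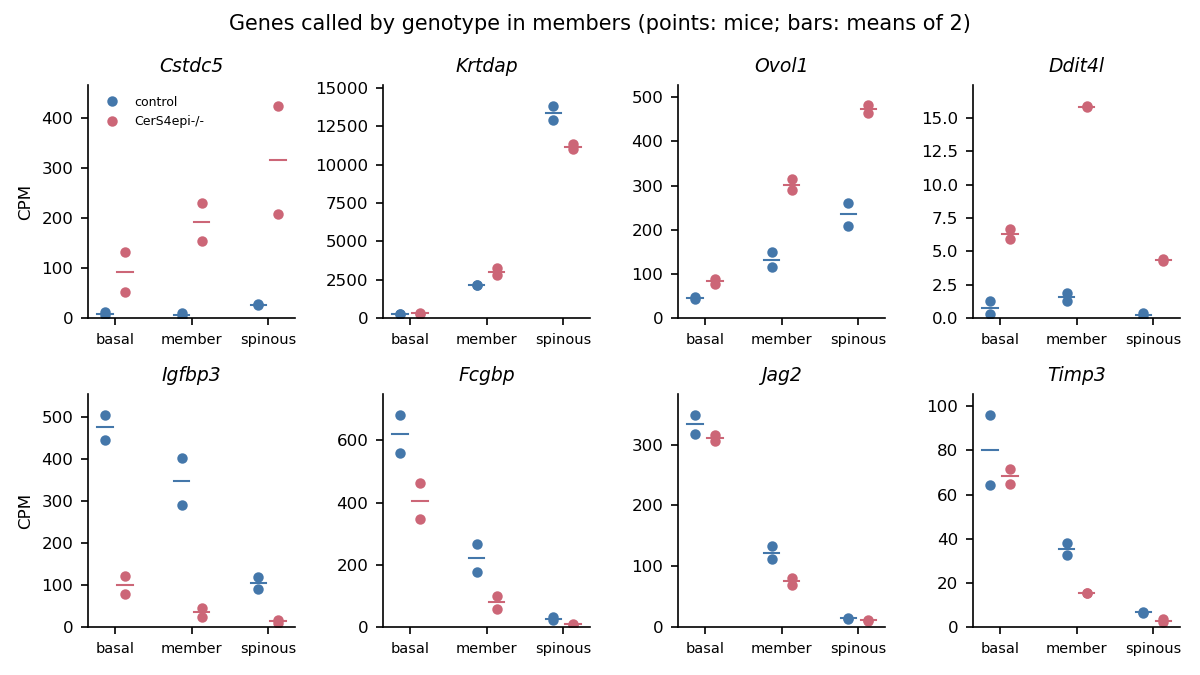
CPM per mouse (points, blue control and red CerS4epi-/-, vertical axes linear from 0) and the mean of 2 mice (bars) in basal neighbours, members and spinous neighbours for 8 genes called by genotype in members. Cstdc5, Ovol1 and Ddit4l are higher and Igfbp3 and Fcgbp lower in CerS4epi-/- mice in all 3 classes, Krtdap is higher in members and lower in spinous neighbours, and the genotypes lie closer in basal neighbours than in members for Jag2 and Timp3.

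Measures of cell handling moved with genotype as well. Immediate early and dissociation genes were higher in CerS4epi-/- members for 12 of 22 and lower for 0 (median log2 0.32), beside 1.49 and 0.796% of all genes. The count of those higher was 6 without control 2, 7 without CerS4epi-/- 2 and 6 to 14 over all alternatives, some of which also called 1 lower. Fos was at 3399, 3263, 5028 and 5008 CPM (log2 difference 0.60 ± 0.06) and Egr1 at 1102, 1042, 1653 and 1932 CPM (0.75 ± 0.08). Of 13 mitochondrially encoded genes 3 were higher. In basal and spinous neighbours, 8 and 11 of the 22 immediate early genes were higher and 0 lower, where 3.84 and 3.73% of all genes were higher. Members of CerS4epi-/- mice also had more counts per cell and a smaller share of high doublet scores (given above). The part of all these measures in the genotype differences was not tested. Among cells of at most 10% mitochondrial counts, 138 genes were called by genotype, 119 of them among the 227, and 13 of 30 tested p53 targets were higher.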

How the data were processed

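Epidermal cells of 4 mice were profiled on the BD Rhapsody platform, with sample tags and 1 count table per mouse. Per the labels and the study's methods, the authors trimmed reads with fastp 0.23.2 and counted them with STAR 2.7.10a (STARsolo) on GRCm39. The deposited values are expected counts per gene and barcode, in which a read shared by several genes is split between them. Near-identical genes (stefins, Clca3a1 and Clca3a2, Krt6a and Krt6b, ribosomal protein genes) are therefore uncertain.

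A barcode was kept from 1200 counts upward if mitochondrial genes gave 20% of them or less, and no doublets were removed (Scrublet as run in Scanpy called 1 cell). Counts were summed per mouse and class, rounded, and tested with edgeR 4.0.16 (quasi-likelihood, TMM, filterByExpr), with the mouse as a block between classes. The p-values were adjusted by Benjamini-Hochberg, and an adjusted p under 0.05 was a call. The genes that the rule reads stayed in the library sizes and out of the tests. The CPM values are counts per 1000000 of the TMM-scaled sums. DESeq2 1.42.0 was an alternative. Data were also simulated with the same fixed spread for all genes and with changes only in genes of at least 20 CPM. There the test between genotypes in members recovered 65% of genes changed by a log2 of 1 and 98% of those changed by 2. The simulated spread was not fitted to these mice, so these shares need not hold for them.

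The members and lists were chosen with earlier results of these data known. The p53, ribosomal and endoplasmic reticulum lists, and the genotype tests within the neighbours, were added after values were seen. Genes were named by the size of their change: the 10 largest rises and falls per comparison, the 12 genes furthest above and the 6 furthest below both neighbours by the smaller of their differences, the 6 largest rises and falls across the gate, and the members of largest change in each list. The mean level in members had to be 20 CPM (5 CPM for the lists) and, outside the lists, all mice had to lie on 1 side; other named genes were chosen after their values were seen. Between genotypes, the p-values measure the spread between these mice. In tests with the mouse as a block, they measure how the difference between classes within a mouse varied over the mice. One transcription factor is not reported here.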

Additional observations from a re-analysis of the deposited data

Results flagged for a closer look

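For 27 genes named here, the difference between genotypes was not the same in members as in a neighbouring class, by the test of the difference itself (edgeR's quasi-likelihood test, adjusted p under 0.05). All values that follow are the genotype difference in members minus that in the neighbours, on the log2 scale. Against basal neighbours, the genes with a positive value among p53 targets were Ptp4a3 (1.35), Ccng1 (0.80), Plk2 (0.68), Btg2 (0.56), Ephx1 (0.52) and Cdkn1a (0.35). Of the other genes, Fbxw9 (1.32), Pyy (0.87), Krtdap (0.32), Gata3 (0.27), Klf5 (0.25), Hes1 (0.25), Krt15 (0.22), Egr1 (0.21) and Fos (0.18) were positive. Negative values were found for Krt6a (-2.07), Igfbp3 (-1.02), Timp3 (-0.99), Cdsn (-0.84), Fcgbp (-0.82), Notch3 (-0.77) and Jag2 (-0.59). For Krt6a, the basal neighbours of CerS4epi-/- 2 stood alone at 323 CPM, beside 92.9, 58.9 and 96.7 CPM in the other mice.

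Against spinous neighbours, the values were positive for Cstdc5 (1.67), Cldn4 (1.27), Ppm1d (1.12), Krtdap (0.75), Cdkn1a (0.64) and Calm4 (0.48). They were negative for Krt6a (-2.23), Pyy (-1.09), Cdsn (-0.86) and Clca3a2 (-0.35). In control members, Pyy was at 142 and 32.3 CPM.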

How the results depend on the processing

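The 227 genes called by genotype in members became 81 with DESeq2, 455 with no filter on low counts, 138 at 10% mitochondrial counts, 142 with a narrower gate and 474 with the replicate number as a block, and 88 to 394 when 1 mouse was left out. The mice share only a number: over 6132 genes the deviations of same-numbered mice correlated at 0.0766.

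The 3047 genes called against basal neighbours became 1653 with DESeq2, 1614 without the mouse in the model and 1564 with the replicate block in its place. The 5755 against spinous neighbours became 3197 among cells of 2000 to 6000 counts. Across the gate, 441 became 117 with DESeq2, 235 at 10% mitochondrial counts, 141 without the mouse and 142 with the replicate block, and 254 (without control 1) to 398 with a mouse left out, with 291 without CerS4epi-/- 1. Genes higher than both neighbours (206) became 70 with DESeq2, 126 with no filter, 110 at 2000 to 6000 counts, 25 without the mouse and 24 with the replicate block, and 136 (without CerS4epi-/- 2) to 187 with a mouse left out. Those lower than both (97) became 35 with DESeq2, 35 at 2000 to 6000 counts, 29 and 31 without the mouse and with the replicate block, and 61 (without CerS4epi-/- 2) to 87.

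Genotype differences that changed between members and basal neighbours (75) became 16 with DESeq2, 133 with no filter, 28 at 2000 to 6000 counts, and 60 to 124 (without CerS4epi-/- 2). Those against spinous neighbours (34) became 7, 71 and 13 in the same settings, 69 at 2000 or more counts and 59 on thinned cells, and 39 to 85 (85 without CerS4epi-/- 2, 57 without control 1, 58 without CerS4epi-/- 1).

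The share of members differed by 0.388 percentage points, by -0.426 on thinned cells, by 2.7 of the 3 classes, and by -0.323 to 1.10 with a mouse left out. The sign turned for 2310046K23Rik against basal neighbours on thinned cells (0.75 on the log2 scale), and for Rgs2 (0.029) and Tead1 (0.018) against spinous neighbours at 2000 to 6000 counts. The causes were not tested. Named genes otherwise kept direction and side of the threshold in 3137 comparisons of a gene and a setting, and lost the call in 249, of which 144 were between genotypes. There 23 of 58 named genes were the same in all settings, against 48 of 68 and 55 of 69 for basal and spinous neighbours.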
